A study of Homo sapiens with 18 samples.

Results

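Gene expression was compared between unstimulated THP-1 cells that had received an siRNA against TRAFD1 (KD) and unstimulated THP-1 cells that had received no siRNA (WT). The comparison used 6 of the 18 libraries of the series, KD replicates 1 to 3 and WT replicates 1 to 3, and every gene that passed a filter on low counts, which left 16678 of 63677 genes in the table. THP-1 is a monocytic leukaemia line, so that all libraries come from 1 cell line. KD cells were transfected with 25 nM of the TRAFD1 siRNA using a lipid reagent (Lipofectamine RNAimax), and 72 h later they were kept in medium alone for 4 h. WT cells had the same 4 h in medium. Their labels conflict, since the design text and the treatment label call them untreated and the protocol describes transfection mix lacking siRNA. A control siRNA group without a target (SCR, 3 libraries) and the same 3 conditions with 10 ng/ml lipopolysaccharide (LPS, 9 libraries) belong to the same series. In KD against WT, the loss of TRAFD1 and the receipt of any siRNA change together and cannot be told apart. The methods speak of treatments in triplicate, but nothing in the labels states that the 3 replicates were separate cultures. The p-values rest on a spread between replicates that was estimated over all 18 libraries, not over these 6 alone. That spread may be technical.

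TRAFD1 encodes a protein with a TRAF-type zinc finger domain that has been proposed as a negative regulator of innate immune signalling, including the NF-kB pathway. A small interfering RNA (siRNA) is loaded into the Argonaute protein, where 1 strand guides cleavage of a matching messenger RNA. The same strand can also lower other messengers through the match of its first bases, the seed, to their 3′ untranslated regions (3′UTRs), and double-stranded RNA can itself be sensed by cells as a sign of infection. Monocytic cells answer such signals, and bacterial LPS, with NF-kB driven cytokines and with interferon-stimulated genes.

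The table holds reads counted per gene from QuantSeq libraries, which sample the 3′ end of polyadenylated RNA. Levels are given as counts per 1000000 (CPM) after TMM scaling, and differences as log2 fold changes of KD over WT ± their standard error (SE). Adjusted p-values come from quasi-likelihood F-tests of edgeR, corrected over all tested genes by Benjamini-Hochberg. The 6 libraries held 10626885 to 21900309 counts, so that a count of 0 allows a level of up to 3 counts, or 0.133 to 0.272 CPM. Such limits cover counting error only. Mitochondrial genes took 3.19% to 3.37% of counts in WT and 3.87% to 4.86% in KD, pseudogenes took 9.14% to 9.64% in WT and 10.5% to 11.2% in KD, and 22040 to 23737 genes were detected in WT against 20851 to 21362 in KD. These 3 measures did not overlap between the groups, and their part in the results below was not tested. Of 14 markers of the monocyte lineage, 12 were tested and CEBPA and FCN1 were at 0 in all 6 libraries. The 14 markers summed to 811 to 929 CPM in WT and 1046 to 1181 CPM in KD. Markers of B cells summed to 29.9 to 35.4 CPM in WT and 38.5 to 41.5 CPM in KD, and those of NK cells to 10.9 to 12.4 and 10.8 to 16.4 CPM. Markers of T cells, erythroid cells, epithelium and fibroblasts summed to at most 2.79 CPM in any of the 6 libraries, with CD3D, CD3E and HBB at 0. Fewer cells of a kind and less RNA per cell cannot be told apart in such bulk samples.

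The sequence that the siRNA targets is shown because it sets which part of the transcript was cleaved and which seed the cells received. It matched TRAFD1 (ENSG00000135148, chromosome 12 of GRCh37, 112563342 to 112591408, plus strand) once, at chr12:112589676-112589696, inside the coding part of exon 10 of 12. The match covers codons 451 to 457 of 582 and ends 1190 bases before the end of the 3178-base transcript, so that the 3′ reads counted here lie downstream of it. The guide was taken as the reverse complement of the target. Capitals mark the bases of the target that pair with guide positions 2 to 8 in the first line, and those guide positions in the second.
TRAFD1 target: cccagccgacccaTTAACAAt
guide strand: aTTGTTAAtgggtcggctggg

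TRAFD1 itself was measured first. Its level was 22.2, 21.2 and 18.3 CPM in WT 1, 2 and 3, and 11.6, 5.37 and 9.02 CPM in KD 1, 2 and 3. Every KD library was below every WT library, and KD 2 was the lowest. Mean expression fell from 20.6 ± 1.99 to 8.67 ± 3.14 CPM (SD, n = 3 each), a loss of 57.5% (log2 fold change -1.23 ± 0.23, adjusted p = 0.00156 in edgeR). These levels rest on 65 to 412 counts per library. Among the genes that fell, TRAFD1 stood at rank 139 by p-value and at rank 99 by size of the change. The call held under every alternative, with log2 fold changes of -1.51 to -0.99 when each library was left out in turn.

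No other gene of the annotation carried the 21-base target with 3 or fewer mismatches, and 8 genes carried it with 4. Of those 8, 6 were tested, and 1 of them passed the threshold: PACS1, which sorts membrane cargo, was 8.82, 21.5 and 12.3 CPM in WT and 21.0, 24.0 and 28.1 CPM in KD (log2 fold change 0.80 ± 0.25, adjusted p = 0.039), and these values overlapped. The seed site TTAACAA was searched in the 3′UTR on the transcript strand. It occurred in 2181 of 12453 tested genes with an annotated 3′UTR (17.5%), and 0 times in the 3′UTR of TRAFD1. Of the genes with at least 1 site, 51 were called higher (2.34%) and 154 lower (7.06%), with a median log2 difference between KD and WT of -0.06. Of the 10272 genes with no site, 643 were higher (6.26%) and 693 lower (6.75%), with a median of -0.01. Genes with a site had longer 3′UTRs, and over 4 classes of equal size the share with a site ran from 2.44% for the shortest 3′UTRs to 38.9% for the longest. Within the longest class the median was -0.08 with a site and -0.07 without, within the next it was -0.03 and -0.04, and within the one after it -0.01 in both. In the shortest class it was -0.09 over 76 genes with a site and 0.06 over 3038 without. From the longest class to the shortest, the share called higher was 1.65%, 3.12%, 3.14% and 3.95% with a site. Without one it was 3.15%, 4.96%, 5.66% and 9.84%. The share called lower was 7.27%, 8.22%, 5.23% and 1.32% with a site and 7.25%, 7.63%, 7.0% and 5.46% without. Over all classes the KD against SCR median was -0.024 with a site and -0.004 without. For SCR against WT it was -0.042 and -0.001, and for KD against WT with LPS 0.07 and 0.004.

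Of the 16678 genes, 1951 passed an adjusted p of 0.05 (11.7%), of which 975 were higher in KD (5.85%) and 976 lower (5.85%). Before adjustment 4297 genes had a p under 0.05. The 3 KD and 3 WT values did not overlap in 4055 genes (24.3%), and in 1807 of the 1951 called genes. Changes were small for the most part: the median absolute log2 fold change of the called genes was 0.60, 652 of them (33.4%) stayed under 0.5, and 254 higher and 147 lower genes were past 1. An adjusted p of 0.01 or less together with an absolute log2 fold change above 1 left 180 genes (1.08%), 132 higher and 48 lower. The number of calls depended on single WT libraries and on the fit. It was 1242 without WT 1 and 980 without WT 3, and the 6 libraries alone gave 280 in edgeR and 836 in DESeq2.

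**Figure D1:**
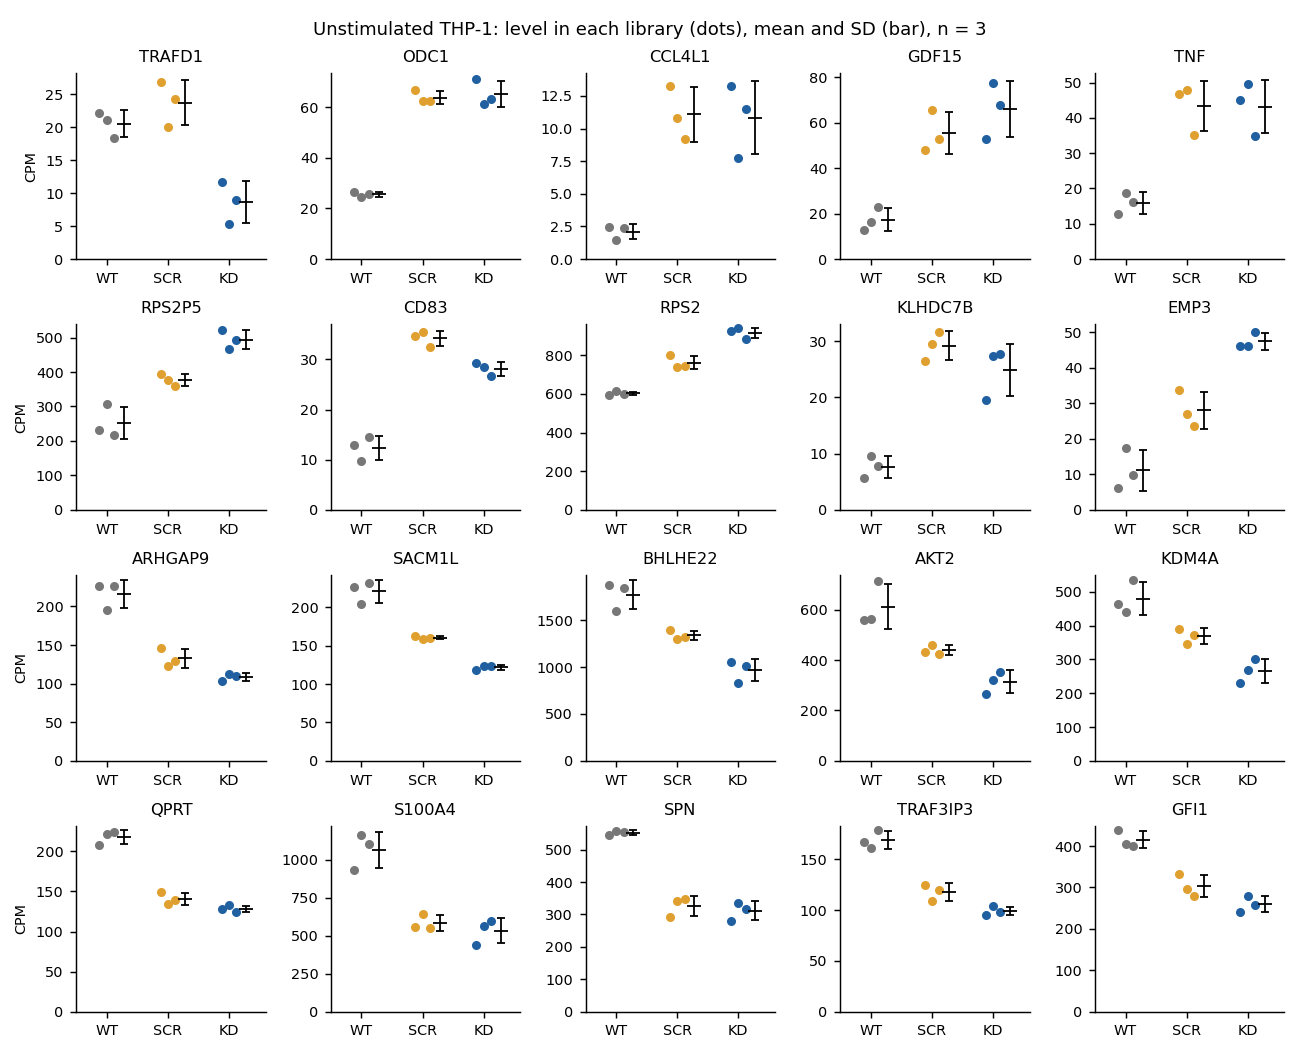
Level of 20 genes in every unstimulated library, in TMM-scaled counts per 1000000 on axes that start at 0, for WT, SCR and KD (points are libraries, bars the mean and SD, n = 3). In all 20 panels the KD and WT points do not overlap. TRAFD1 is lower in KD than in both control groups, whereas in ODC1, CCL4L1, GDF15 and TNF the SCR points lie near those of KD.

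The smallest p-value of the comparison belonged to ODC1 (ENSG00000115758, chromosome 2, 10580094 to 10588453), ornithine decarboxylase, which catalyses the first step of polyamine synthesis. ODC1 was 26.5, 24.6 and 25.8 CPM in the WT libraries and 71.0, 61.2 and 63.2 CPM in the KD libraries. All KD values exceeded all WT values, with a log2 fold change of 1.34 (SE 0.12, adjusted p = 1.25e-06). Of 17 tested genes of polyamine metabolism, 3 rose and 2 fell, a share of 29.4% against 11.7% of all genes. SRM, spermidine synthase, rose from 49.9, 59.3 and 53.6 CPM to 77.5, 114 and 105 CPM (log2 fold change 0.86 ± 0.14, adjusted p = 0.000398). EIF5A, the translation factor that carries a modified lysine made from spermidine, was 40.9, 69.8 and 42.5 CPM in WT and 70.8, 94.6 and 102 CPM in KD (log2 fold change 0.81, adjusted p = 0.00225). WT 2 lay just under KD 1, and the call was lost in edgeR on the 6 libraries alone (adjusted p = 0.0744). AZIN2, which binds the antizymes that inhibit ornithine decarboxylase, fell from 3.39 to 4.90 CPM in WT to between 0.50 and 1.63 CPM in KD (log2 fold change -2.13 ± 0.45, adjusted p = 0.00388). AMD1, S-adenosylmethionine decarboxylase, named here after its value was seen because it completes the 5, fell by 0.31 on the log2 scale (adjusted p = 0.039), with overlapping groups.

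Of 24 tested cytokines and chemokines, 7 rose and 1 fell, against 5.85% of all genes in each direction, and the median of the list was 0.39 against -0.01 over all genes. CCL4L1 (ENSG00000205020, chromosome 17, 34538310 to 34540280), a copy of the macrophage chemokine CCL4, was 2.49, 1.45 and 2.36 CPM in WT and 13.2, 7.77 and 11.5 CPM in KD (log2 fold change 2.32 ± 0.20, adjusted p = 1.25e-06). Every KD library was over 3 times the highest WT library. CCL4L2, a near-identical copy, gave a log2 fold change of 2.31, and both were taken as 1 signal since their reads cannot be told apart. The 24 tested and the 7 that rose count each copy separately. TNF, the cytokine tumour necrosis factor, was 12.7, 18.7 and 16.2 CPM in WT and 45.2, 49.6 and 34.9 CPM in KD (log2 fold change 1.45 ± 0.16, adjusted p = 1.1e-05). GDF15, a secreted factor induced by cellular stress, was 12.9, 16.4 and 22.8 CPM in WT and 53, 77.5 and 67.6 CPM in KD (log2 fold change 1.92 ± 0.18, adjusted p = 2.9e-06). CD83, a surface protein of activated antigen-presenting cells, was 12.9, 9.72 and 14.4 CPM in WT and 29.3, 28.4 and 26.6 CPM in KD (log2 fold change 1.17 ± 0.13, adjusted p = 1.42e-05). None of these 4 groups of values overlapped. The 1 cytokine that fell, TNFSF13B (BAFF, a survival factor of B cells), was named after its value was seen; it was 193, 231 and 201 CPM in WT and 140, 148 and 146 CPM in KD (log2 fold change -0.53, adjusted p = 0.000727). Without WT 3, and in both fits of the 6 libraries, 4 members were called higher.

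Components and inhibitors of NF-kB showed a similar direction at a smaller size. Of 20 tested, 7 rose and 1 fell, with a median of 0.24, and their summed level was 867, 905 and 896 CPM in WT, 1259, 1267 and 1194 CPM in SCR and 1000, 1062 and 976 CPM in KD. Every KD sum lay above all WT and below all SCR sums. TNFAIP3 (A20), a ubiquitin-editing inhibitor of NF-kB, was 12.8, 11.3 and 10.4 CPM in WT and 27.5, 26.5 and 14.5 CPM in KD (log2 fold change 0.99 ± 0.17, adjusted p = 0.000727), with KD 3 nearest to WT. NFKBIE, an inhibitor of the same IkB family as NFKBIA, was 18.3, 19.7 and 18.6 CPM in WT and 29.6, 31.6 and 26.1 CPM in KD (log2 fold change 0.63 ± 0.11, adjusted p = 0.00115). NFKBIA did not pass the test, at 253, 238 and 265 CPM in WT and 300, 328 and 249 CPM in KD (log2 fold change 0.21, adjusted p = 0.129). RELA, the p65 subunit, did not pass either (log2 fold change -0.32, adjusted p = 0.0815). IKBKB, the kinase that marks the inhibitors for degradation, was the 1 that fell and was named after its value was seen (log2 fold change -0.36, adjusted p = 0.0177). On the 6 libraries alone edgeR called 0 of the 20 genes and DESeq2 3, and without WT 3 there were 4 higher calls.

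Immediate-early transcription factors and feedback phosphatases, which cells induce within minutes to hours of a stimulus, held 9 higher and 1 lower of 22 tested. The share called was 45.5% against 11.7% of all genes, and the median was 0.49. EGR1, a zinc finger factor, was 8.14, 8.17 and 7.03 CPM in WT and 23.5, 18.6 and 12.6 CPM in KD (log2 fold change 1.24 ± 0.19, adjusted p = 0.000346). ATF3, a stress-induced repressor, was 7.69, 6.72 and 7.69 CPM in WT and 14.2, 17.4 and 12.2 CPM in KD (log2 fold change 0.98 ± 0.17, adjusted p = 0.000723). Neither gene overlapped between the groups, and both calls held in every fit. IER5, named after its value was seen as the 1 that fell, had a log2 fold change of -0.41 (adjusted p = 0.0104). The count of higher genes was 4 without WT 1, 5 without WT 3, 2 in edgeR on the 6 libraries and 4 in DESeq2 on them.

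Among 19 tested myeloid transcription factors, 4 rose and 4 fell, a share of 42.1% against 11.7% of all genes. GFI1, a repressor of the monocytic program in granulocyte precursors, fell from 439, 406 and 400.5 CPM to 240.4, 279 and 259 CPM (log2 fold change -0.68 ± 0.08, adjusted p = 3.5e-05). POU2F2 (OCT2), an octamer-binding factor, fell from 104, 109 and 123 CPM to 67.9, 67.6 and 80.2 CPM (log2 fold change -0.64 ± 0.10, adjusted p = 0.00028). Of the adhesion genes, 2 of 18 rose and 3 fell (27.8% called). CD44, the hyaluronan receptor, was 40.8, 42.3 and 45.9 CPM in WT and 85.7, 56.8 and 69.4 CPM in KD (log2 fold change 0.72 ± 0.11, adjusted p = 0.000351). SPN (CD43), a long sialylated glycoprotein of leukocytes, fell from 545, 558 and 554 CPM to 279.6, 336 and 318 CPM (log2 fold change -0.83 ± 0.10, adjusted p = 2.12e-05).

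Among lower genes the smallest p-values belonged to ARHGAP9, SACM1L and BHLHE22. ARHGAP9 (ENSG00000123329) fell from 227, 195 and 226 CPM to 103, 112 and 110.5 CPM (log2 fold change -0.99 ± 0.10, adjusted p = 2.9e-06). SACM1L (ENSG00000211456), the phosphatase of the endoplasmic reticulum that removes phosphate from phosphatidylinositol 4-phosphate, fell from 227, 204 and 232 CPM to 118, 123 and 124 CPM (log2 fold change -0.86 ± 0.09, adjusted p = 4.53e-06). BHLHE22 (ENSG00000180828), a basic helix-loop-helix repressor known from the nervous system, fell from 1878, 1598 and 1846 CPM to 1057, 830.4 and 1014 CPM (log2 fold change -0.88 ± 0.09, adjusted p = 5.15e-06). In all 3 the groups were separated by more than the range within either group. AKT2, a kinase of insulin signalling, was 559, 562 and 715 CPM in WT and 264, 321.5 and 354.5 CPM in KD (log2 fold change -0.97 ± 0.11, adjusted p = 1.78e-05). KDM4A, a histone lysine demethylase, was 464, 442 and 534.5 CPM in WT and 229, 269.6 and 300.0 CPM in KD (log2 fold change -0.85 ± 0.10, adjusted p = 1.89e-05). S100A4, a calcium-binding protein of motile cells, was 935, 1163 and 1104 CPM in WT and 438, 566 and 600 CPM in KD (log2 fold change -1.0 ± 0.12, adjusted p = 2.12e-05). QPRT (NAD synthesis), TRAF3IP3 and ASRGL1 (an asparaginase-like enzyme) fell by 0.76, 0.77 and 1.14 on the log2 scale, with adjusted p-values of 2.08e-05, 2.68e-05 and 3.52e-05. SPN and QPRT share annotated sequence on 1 strand, and ARHGAP9, KDM4A and TRAF3IP3 overlap a gene on the other strand. Whether counting used strand was not given in the sources used here, so that their reads and those of the overlapping gene cannot be told apart.

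Genes of protein synthesis moved in 1 direction for the most part. Of 78 tested cytosolic ribosomal proteins, 44 rose and 1 fell (57.7% called, against 11.7% of all genes), and 75 had a positive log2 fold change, with a median of 0.29 against -0.01 over all genes. RPS2 was 596, 613 and 601 CPM in WT and 923, 938 and 885 CPM in KD (log2 fold change 0.60 ± 0.07, adjusted p = 1.75e-05). RPL3 was 601, 656 and 616 CPM in WT and 872, 982 and 951 CPM in KD (log2 fold change 0.58 ± 0.08, adjusted p = 7.89e-05). RPL10 was 217, 277 and 269.5 CPM in WT and 380.2, 408 and 413 CPM in KD (log2 fold change 0.65 ± 0.09, adjusted p = 0.000124). No value of these 3 genes overlapped between the groups. The summed level of the 78 genes was 101400 to 105100 CPM in WT, 110400 to 117300 CPM in SCR and 115900 to 123400 CPM in KD. The 1 that fell, RPS28, was named after its value was seen; it was 1698, 1899 and 2022 CPM in WT and 1310.0, 1652 and 1534 CPM in KD (log2 fold change -0.32 ± 0.09, adjusted p = 0.0219). In the 6 libraries alone edgeR called 11 higher and DESeq2 24, and leaving out 1 library gave 33 to 44.

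Of 33 tested genes of ribosome biogenesis, 11 rose and 0 fell (33.3% called, against 11.7% of all genes), with a median of 0.30. NOP16, a nucleolar protein of the large subunit pathway, was 46.6, 49.0 and 42.0 CPM in WT and 71.3, 66.8 and 66.6 CPM in KD (log2 fold change 0.58 ± 0.10, adjusted p = 0.00057). NHP2, a core protein of box H/ACA particles, was 39.6, 41.8 and 37.7 CPM in WT and 57.8, 70.9 and 58.1 CPM in KD (log2 fold change 0.65 ± 0.11, adjusted p = 0.000741). NPM1, the abundant nucleolar chaperone nucleophosmin, had a log2 fold change of 0.23 and did not pass (adjusted p = 0.0507). Higher calls numbered 4 without WT 3, 7 without KD 2, and 3 and 4 in edgeR and DESeq2 on the 6 libraries. Of 34 tested translation factors, 8 rose and 1 fell (26.5% called), with a median of 0.12. EIF1, which guides start codon choice, was 578, 632 and 593 CPM in WT and 816, 794 and 821 CPM in KD (log2 fold change 0.43 ± 0.07, adjusted p = 0.000564). The 1 that fell was EIF4G2, a scaffold of alternative initiation, named after its value was seen (log2 fold change -0.27, adjusted p = 0.0302). In edgeR on the 6 libraries 1 translation factor was called higher. Of 20 aminoacyl-tRNA synthetases 2 rose and 1 fell, against 5.85% of all genes in each direction. Leaving out 1 library gave 0 to 2 in each direction, with 0 in both without WT 3.

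**Figure D2:**
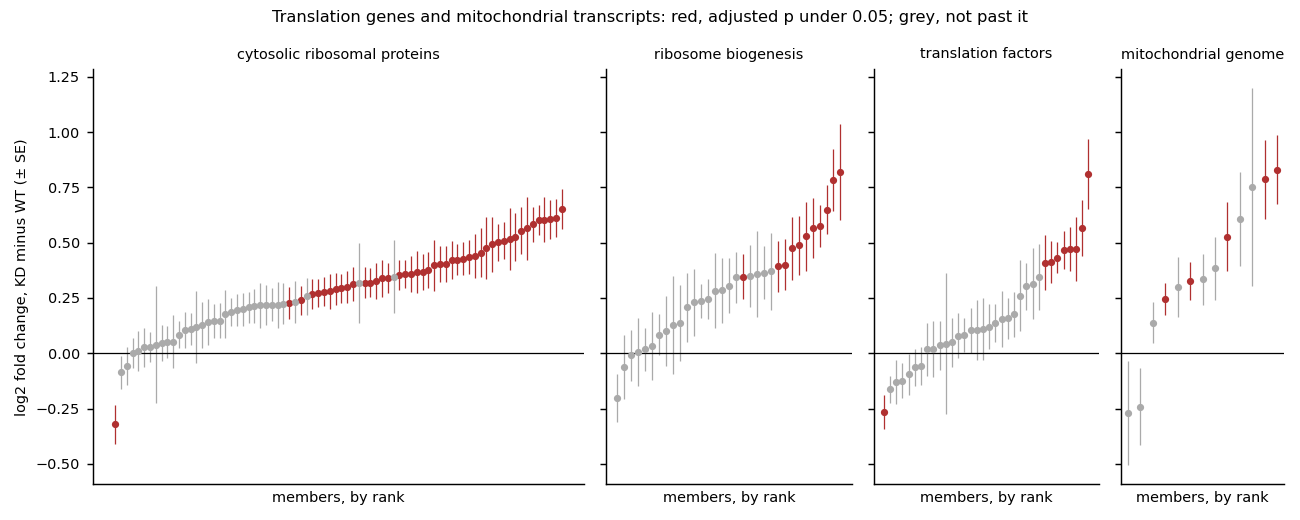
Log2 fold change of KD over WT, unstimulated, with its SE, for each tested gene of 4 groups ordered by value: cytosolic ribosomal proteins, ribosome biogenesis, translation factors and the mitochondrial genome. Red points had an adjusted p under 0.05 in edgeR. In the first group 75 of 78 points lie above 0 and 44 are called higher, and in the last all called points are higher.

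Transcripts of the mitochondrial genome were higher in KD for 5 of 13 tested genes and lower for 0, with a median of 0.33. That is 38.5% called, against 11.7% of all genes. MT-ND2, a core subunit of complex I, was 1812, 1983 and 1453 CPM in WT and 2939, 3574 and 2820.0 CPM in KD (log2 fold change 0.83 ± 0.15, adjusted p = 0.00156). MT-ND1, a subunit of the same complex, was 3804, 2846 and 3409 CPM in WT and 5809, 7025 and 4509 CPM in KD (log2 fold change 0.79, adjusted p = 0.00681). The KD libraries were above all WT libraries in both genes, and KD 2, the library in which mitochondrial genes took the largest share of counts (4.86%), was the highest. The 13 genes together reached 22930 to 25290 CPM in WT, 24350 to 27000 CPM in SCR and 29260 to 35720 CPM in KD. Higher calls numbered 2 without WT 3, 3 without KD 2, 10 without the low-count filter, and 2 in edgeR on the 6 libraries. Of 69 tested nuclear genes of the respiratory chain, 7 rose and 1 fell, a share of 11.6%, close to the 11.7% of all genes, and 2 were called higher without WT 3.

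Of 1418 tested processed pseudogenes, which are copies of spliced messengers, 186 were called higher (13.1%) and 16 lower (1.13%), with a median of 0.28. In the 403 that derive from ribosomal protein genes, 90 were higher (22.3%) and 4 lower, with a median of 0.34. The 517 other pseudogenes held 35 higher and 13 lower, with a median of 0.06. RPS2P5 was 231, 307 and 219 CPM in WT and 523, 467 and 491 CPM in KD (log2 fold change 0.97 ± 0.11, adjusted p = 1.33e-05). Reads of such a copy and of its parent gene, here RPS2, can be interchanged by an aligner, so that these values are uncertain. RPS2P5 also lies opposite to TAOK3 on the other strand. Long non-coding RNAs showed the reverse balance, with 19 of 1469 higher (1.29%), 64 lower (4.36%) and a median of -0.16, while the 12490 protein-coding genes had a median of -0.02 with 699 higher and 850 lower.

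The study had tied 41 genes to TRAFD1 through genetic associations in blood, the trans-mediated genes, and 35 of these were tested. In KD against WT 5 rose and 1 fell, a share of 17.1% against 11.7% of all genes, and the median was 0.08. The median was 0.0 for KD against SCR, which called 0 of the 35, and 0.12 for SCR against WT, which called 4. GADD45B, a stress-induced regulator of MAP kinase signalling, was 40.1, 37.9 and 35.2 CPM in WT and 75.3, 57.1 and 63.6 CPM in KD (log2 fold change 0.79 ± 0.12, adjusted p = 0.000179). ICAM1, the adhesion ligand of leukocyte integrins, was 1.19, 3.18 and 2.80 CPM in WT and 7.92, 5.37 and 6.30 CPM in KD (log2 fold change 1.48 ± 0.25, adjusted p = 0.000675), a call that was lost in edgeR on the 6 libraries (adjusted p = 0.0675). GBP1, an interferon-induced GTPase, was 1.24, 1.45 and 1.87 CPM in WT and 1.75, 3.88 and 4.12 CPM in KD, and its values overlapped (log2 fold change 1.06, adjusted p = 0.0141). That call was lost without WT 1, KD 2 or KD 3, and the edgeR adjusted p over the fits that left out 1 library reached 0.0781. The chemokine CXCL10 (log2 fold change 1.03), the Fc receptor gene FCGR1C (ENSG00000253193, 0.41) and the scavenger receptor gene SCARF1 (-1.53) make up the rest and were named after their values were seen. ICAM1 and CXCL10 were also higher in SCR than in WT, with log2 differences of 1.503 and 1.89 (edgeR adjusted p = 0.00171 and 0.000615). For KD against SCR their differences were -0.018 and -0.86, and neither passed the test. FCGR1C has near-identical copies, so that its value is uncertain. The higher calls numbered 3 without WT 1 or KD 2, and 1 and 2 in edgeR and DESeq2 on the 6 libraries.

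Of 35 tested genes of the type I interferon response, 6 rose and 1 fell, against 5.85% of all genes in each direction. The median was -0.05. IFIT2, an RNA-binding antiviral protein, was 65.9, 66.6 and 61.0 CPM in WT and 129, 110.4 and 92.2 CPM in KD (log2 fold change 0.78 ± 0.13, adjusted p = 0.000738), and its call held in every fit. IFI35 was 115, 172 and 122 CPM in WT and 202, 196 and 252 CPM in KD (log2 fold change 0.67, adjusted p = 0.00288), a call lost in edgeR on the 6 libraries (adjusted p = 0.0626). The sum over the 35 genes was 11400 to 11520 CPM in WT and 11150 to 12070 CPM in KD, and these ranges overlapped. In edgeR on the 6 libraries 1 of the 35 was called higher. The 1 that fell, the nucleotide kinase CMPK2, had a log2 fold change of -0.33 (adjusted p = 0.00916), and its call was lost without WT 1 (adjusted p = 0.0619), with the GC correction and in both fits of the 6 libraries. Sensors of foreign nucleic acid held 1 higher and 3 lower of 17 tested (23.5% called). ADAR, which edits adenosine in double-stranded RNA, fell from 723, 692 and 716 CPM to 533, 497 and 542 CPM (log2 fold change -0.44 ± 0.07, adjusted p = 0.000481), a call lost in edgeR on the 6 libraries (adjusted p = 0.0644). Of 13 tested genes of the RNA interference machinery 0 rose and 2 fell (15.4% called), with 0 lower without WT 3 and 3 without KD 2. DROSHA, the nuclease that starts microRNA processing, was 1 of them (log2 fold change -0.35, adjusted p = 0.0113), and its call was lost without WT 3 (adjusted p = 0.0723), without the low-count filter and in both fits of the 6 libraries.

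In the list of class I antigen presentation 2 of 19 tested genes fell and 0 rose, a share of 10.5%, near the 11.7% of all genes. TAP2, a subunit of the peptide transporter, went from 295, 254 and 273 CPM in WT to 184, 183 and 189 CPM in KD (log2 fold change -0.56 ± 0.10, adjusted p = 0.000689). NLRC5, the transactivator of class I genes, went from 74.5, 67.1 and 77.2 CPM to 44.3, 48.5 and 41.0 CPM (log2 fold change -0.71 ± 0.14, adjusted p = 0.00191). Neither gene overlapped between the groups, and both calls held in every fit. In the class II list 2 of 10 fell and 0 rose, against 5.85% of all genes in each direction. HLA-DQB1, a class II beta chain, went from 20.8, 13.1 and 15 CPM to 8.66, 8.35 and 6.92 CPM (log2 fold change -1.03 ± 0.20, adjusted p = 0.00179), a call lost in edgeR on the 6 libraries (adjusted p = 0.0509). CTSS, the protease that cuts the invariant chain, fell by 0.48 on the log2 scale (adjusted p = 0.00181), and its call was lost in the same fit (adjusted p = 0.0786).

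In the list of LPS receptor and Toll-like receptor signalling, 1 of 19 tested genes rose and 2 fell. The share called was 15.8% against 11.7% of all genes. TLR4, the receptor of LPS, was 20.1, 12.9 and 13.1 CPM in WT and 7.99, 8.10 and 7.62 CPM in KD (log2 fold change -0.96, adjusted p = 0.00697), and CD14, its co-receptor, was 10.9, 16.9 and 20.7 CPM in WT and 23.6, 30.7 and 25.8 CPM in KD (log2 fold change 0.72, adjusted p = 0.0232). Both pairs of groups stayed apart, TLR4 lower and CD14 higher in KD. The TLR4 call was lost without WT 1 (adjusted p = 0.0614) and that of CD14 without WT 1 (0.113) or KD 2 (0.0769), and edgeR on the 6 libraries called neither. CD14 is 1 of the 3 monocyte markers that passed the test, and the others were ELANE (log2 fold change 0.67, adjusted p = 0.00095) and CD68 (0.95, 0.015). Of the tested markers that did not pass, LYZ (-0.25), ITGAM (-0.23) and MPO (-0.90) were lower in KD. CD33, CSF1R, SPI1, FCGR1A, MPEG1 and AIF1 were higher, by 0.055 to 0.453. For CD14 the log2 difference was -0.42 for KD against SCR and 1.14 for SCR against WT.

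Of 23 tested phosphoinositide kinases and phosphatases 0 rose and 7 fell, with a median of -0.19, against 5.85% of all genes in each direction. PIP5K1A, a kinase that makes phosphatidylinositol 4,5-bisphosphate, went from 40.3, 36.0 and 40.3 CPM in WT to 21.6, 22.6 and 23.7 CPM in KD (log2 fold change -0.79 ± 0.15, adjusted p = 0.00186). PIK3CD, the leukocyte phosphoinositide 3-kinase, went from 493, 498.7 and 545 CPM to 305, 342 and 388.5 CPM (log2 fold change -0.57 ± 0.10, adjusted p = 0.000738), a call lost in edgeR on the 6 libraries (adjusted p = 0.055). The count was 4 without WT 3, and 2 and 4 in edgeR and DESeq2 on the 6 libraries. Of 42 lysosomal genes 2 rose and 8 fell (23.8% called, against 11.7% of all genes), with a median of -0.09. Their sums overlapped, at 11770 to 13660 CPM in WT and 11760 to 12690 CPM in KD. GLB1, beta-galactosidase, went from 242, 294 and 256 CPM to 176, 166 and 178 CPM (log2 fold change -0.60 ± 0.09, adjusted p = 0.000234), whereas CTSH, the aminopeptidase cathepsin H, rose from 14.2, 21.7 and 19.5 CPM to 33.4, 40.4 and 32.4 CPM (log2 fold change 0.94 ± 0.14, adjusted p = 0.000291). Lower lysosomal calls numbered 4 without WT 3, and 1 and 3 in edgeR and DESeq2 on the 6 libraries. Of 37 genes of vesicle traffic 3 rose and 8 fell, a share of 29.7% against 11.7% of all genes, with a median of -0.04, and on the 6 libraries edgeR called 0 of them and DESeq2 1 higher and 4 lower. The 3 higher calls were 1 without WT 1 or KD 3 and 5 without WT 2.

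Calls in other lists differed in share and in direction. Of 29 tested NRF2 targets, ferritin and metallothionein genes, 9 rose and 2 fell, a share of 37.9% against 11.7% of all genes. HMOX1, heme oxygenase 1, was 15.8, 21.6 and 21 CPM in WT and 33.0, 46.2 and 39.2 CPM in KD (log2 fold change 1.02 ± 0.17, adjusted p = 0.000606). SQSTM1 (p62), an autophagy receptor, was 187, 179 and 220 CPM in WT and 272, 304 and 268.5 CPM in KD (log2 fold change 0.53 ± 0.08, adjusted p = 0.000351). Neither overlapped between the groups, while edgeR on the 6 libraries left 2 and DESeq2 4 of the 9 higher calls. Among 13 S100 proteins and annexins 5 rose and 1, S100A4, fell (46.2% called). S100A11 was 173, 222 and 170.3 CPM in WT and 269.8, 316 and 357 CPM in KD (log2 fold change 0.74 ± 0.12, adjusted p = 0.000403). The higher calls of that list were 3 without KD 1 and 1 in edgeR on the 6 libraries. Of 26 genes of cholesterol synthesis 1 rose and 3 fell (15.4% called). Lower calls there were 1 without WT 3 and 5 without KD 1 or KD 2. Of 40 splicing factors 6 rose and 4 fell (25.0% called). HNRNPK, a poly(C)-binding protein, went from 1608, 1645 and 1629 CPM to 1118, 1014 and 1182 CPM (log2 fold change -0.56 ± 0.07, adjusted p = 5.46e-05). The 6 higher splicing calls were 2 without WT 3, 3 without WT 1 or KD 3 and 0 in edgeR on the 6 libraries.

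Of 38 tested genes of DNA replication and S phase 6 rose and 0 fell, with a median of 0.26. Of 40 genes of mitosis and G2/M 0 rose and 1, TOP2A, fell (log2 fold change -0.43, adjusted p = 0.0113). The shares called were 15.8% and 2.5%, against 11.7% of all genes. The TOP2A call was lost without WT 3 or KD 3, with the GC correction and in both fits of the 6 libraries. RRM2, a subunit of ribonucleotide reductase, was 25.2, 22.2 and 25.8 CPM in WT and 43.0, 40.7 and 35.9 CPM in KD (log2 fold change 0.70 ± 0.13, adjusted p = 0.00174). The 6 higher calls were 3 without WT 1, WT 3 or KD 1, 10 without WT 2 and 1 in edgeR on the 6 libraries. Of 30 genes of the amino acid and integrated stress response 5 rose and 2 fell (23.3% called). DDIT3 (CHOP) was 72.9, 83.5 and 88.0 CPM in WT and 119, 125 and 126 CPM in KD (log2 fold change 0.60 ± 0.13, adjusted p = 0.00411), and ATF4, its upstream factor, had a log2 fold change of -0.03 and did not pass. The 5 higher calls were 3 without KD 2 and 2 in edgeR on the 6 libraries. The list of ER chaperones held 1 higher and 1 lower of 24, and heat shock chaperones 0 and 1 of 19. Proteasome genes held 1 and 2 of 34, p53 targets 2 and 2 of 29, and glycolysis 3 and 2 of 23. Shares called were 8.33%, 5.26%, 8.82%, 13.8% and 21.7% in that order, against 11.7% of all genes. Such small counts moved with single libraries. Higher ER chaperone calls were 3 without KD 2 and 0 without WT 1, WT 3 or KD 3, and higher heat shock calls 2 without WT 2. Proteasome calls were 3 higher without WT 2, 3 lower without KD 3 and 0 in either direction without WT 3, and up to 5 higher under other settings. Higher glycolysis calls were 6 without WT 2 and 5 without KD 2. In the p53 list, TP53INP1 fell from 11.4, 13.9 and 9.87 CPM to 5.71, 5.21 and 5.52 CPM (log2 fold change -1.09 ± 0.21, adjusted p = 0.00196).

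**Figure D3:**
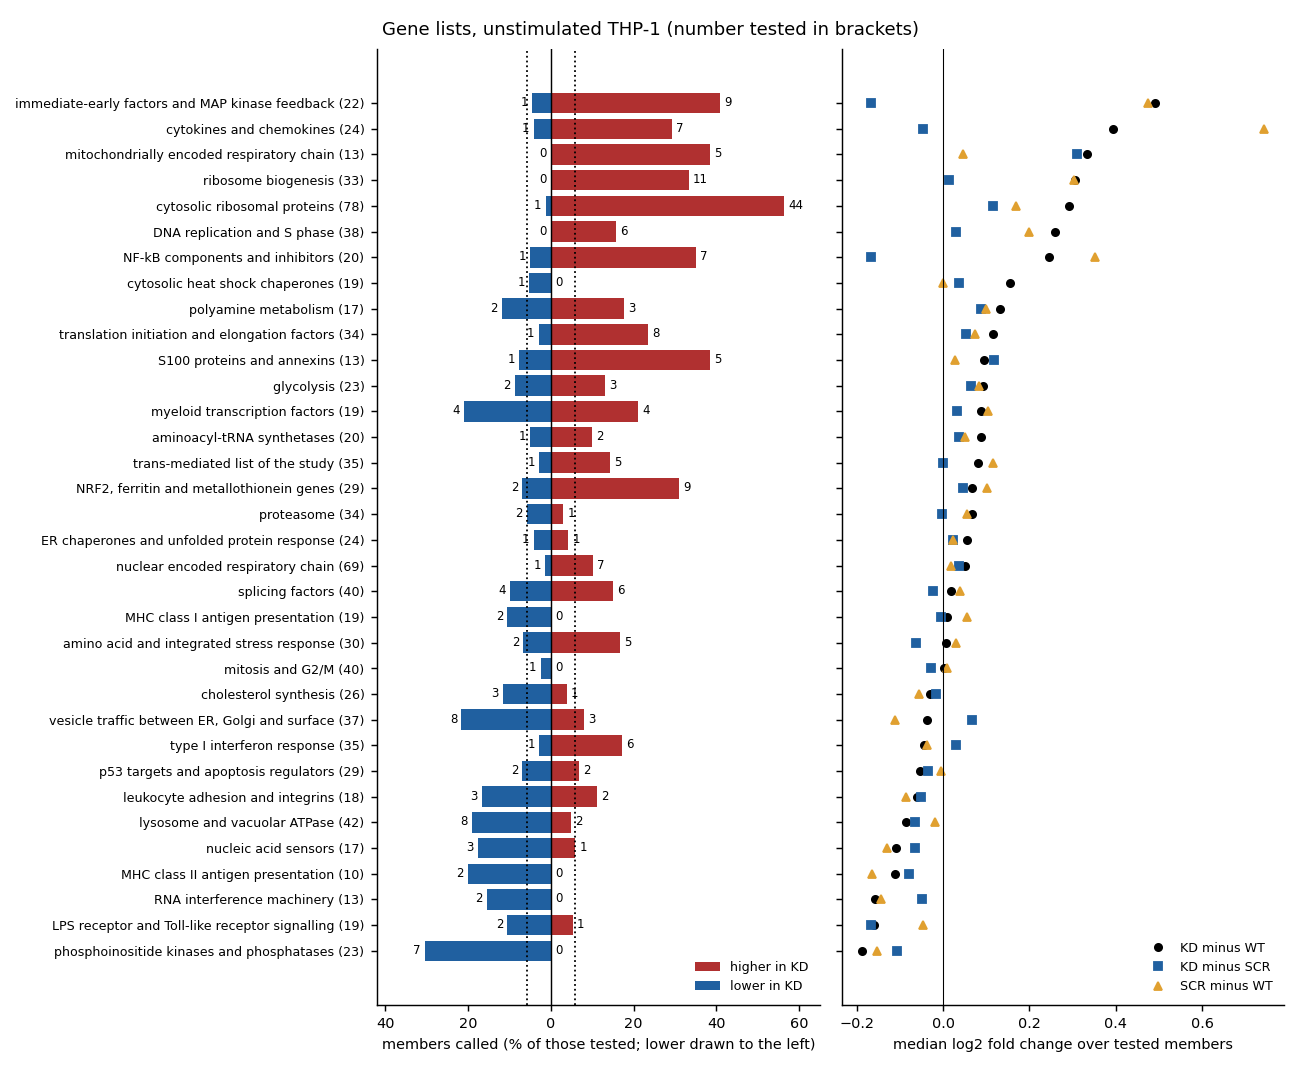
Left, share of the tested members of 34 gene lists called higher (red, to the right) or lower (blue, to the left) in KD than in WT, in percent with the number of genes; dotted lines mark the share over all 16678 genes, 5.85% in each direction. Right, median log2 difference of each list for KD minus WT (circles), KD minus SCR (squares) and SCR minus WT (triangles), which share libraries. Cytosolic ribosomal proteins reach furthest to the right with 44 of 78.

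The largest fold changes came from genes with few counts. Among higher genes, JOSD2, a Josephin-domain deubiquitinase, had 8, 10 and 23 counts in the WT libraries and 58, 56 and 63 in the KD libraries. The ratio of levels was 5.55 (95% exact interval 3.93 to 7.99, which here and below rests on counts summed over 3 libraries and covers counting error only, not the spread between libraries), with an edgeR adjusted p of 0.000388 and a call in every fit. GPR183, an oxysterol receptor that guides leukocyte migration, had 10, 0 and 16 counts in WT and 42, 36 and 23 in KD (ratio 4.99, 3.22 to 8.0; adjusted p = 0.0162, and 0.0855 in edgeR on the 6 libraries). GPR183 overlaps UBAC2 in the annotation. HSD17B8, a short-chain dehydrogenase, had 9, 0 and 5 counts in WT and 25, 18 and 30 in KD (ratio 6.70, 3.75 to 12.8), and its call was lost without WT 3 (adjusted p = 0.056) and in edgeR on the 6 libraries (0.072). Among lower genes, ZFYVE28, a regulator of receptor traffic, had 14, 21 and 45 counts in WT and 1, 0 and 2 in KD. Its level was 20.8 times higher in WT (95% exact interval 6.85 to 103, adjusted p = 0.00185). SLC6A13, a transporter of GABA, had 58, 31 and 43 counts in WT and 1, 5 and 0 in KD (17.1 times higher in WT, 7.66 to 47.5; adjusted p = 0.00594). Both lower calls held in every fit, while those of PDE9A and LINC00051 were lost in 4 and in all 6 of the fits without 1 library, and that of the pseudogene EIF3EP1 in 5 of 6.

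The SCR libraries allow the values of KD to be set beside those of cells with another siRNA. KD against SCR and SCR against WT each share 3 libraries with KD against WT, so that the comparisons are not independent and only their own values are given. KD against SCR called 11 genes (0.066%; 4 higher and 7 lower, and 2107 at an unadjusted p under 0.05), and SCR against WT called 538 (3.23%). The first number was 1 without SCR 1 or SCR 3, 3 without KD 2, 6 without SCR 2 and 53 without KD 1. DESeq2 gave 242. The second was 200 to 494 without 1 library. TRAFD1 was 26.8, 20.1 and 24.3 CPM in SCR, with a log2 difference of -1.45 for KD against SCR (adjusted p = 0.0277) and 0.21 for SCR against WT (adjusted p = 0.675). The KD against SCR call of TRAFD1 was lost without SCR 1, SCR 3 or KD 2.

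POU2F2 was the 1 gene of the 11 whose KD against SCR call held in all 12 alternative fits. It was 133, 113 and 119 CPM in SCR, with a log2 difference of -0.76 for KD against SCR (adjusted p = 0.0023), of 0.12 for SCR against WT and of -0.64 for KD against WT, the last lost in edgeR on the 6 libraries (adjusted p = 0.0501). ZDHHC7, a palmitoyltransferase, was 182, 164 and 180.3 CPM in WT, 197, 156 and 182 CPM in SCR and 127, 117 and 131 CPM in KD. Its log2 differences were -0.49, -0.51 (adjusted p = 0.0479) and 0.03 for KD against WT, KD against SCR and SCR against WT. The KD against WT call of ZDHHC7 was lost in edgeR on the 6 libraries (adjusted p = 0.0696). In both genes the KD libraries were below all libraries of both control groups. The integrin chain ITGB2, named after its value was seen as the last of the 11, had log2 differences of -0.35, -0.54 and 0.19 in the same order. BHLHE22 stood between, at 1396, 1302 and 1320.0 CPM in SCR and differences of -0.88, -0.47 and -0.41. The pseudogenes RPS13P2, RPL6P10, RPS27P8 and RPL7AP50 were higher in KD than in both controls, by 0.99, 1.02, 0.58 and 0.61 on the log2 scale against WT and by 0.62, 0.68, 0.43 and 0.57 against SCR. The transcripts AC093668.2 and RP11-196G18.23 were lower, by differences of -0.87 and -2.41 against WT and of -0.69 and -2.27 against SCR. AC093668.2 shares annotated sequence with RASA4B on 1 strand, and the 4 pseudogenes each overlap another annotated gene, so that their reads are uncertain. Apart from POU2F2 and TRAFD1, each of these KD against SCR calls was lost in 4 or 5 of the 6 fits without 1 library.

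For the genes that rose most clearly, SCR lay near KD. ODC1 was 66.7, 62.4 and 62.2 CPM in SCR, with log2 differences of 0.03 for KD against SCR and 1.31 for SCR against WT. TNF was 46.9, 47.9 and 35.1 CPM (differences of -0.00 and 1.46), CCL4L1 was 13.3, 10.8 and 9.16 CPM (-0.04 and 2.36), and GDF15 was 47.8, 65.7 and 52.6 CPM (0.26 and 1.66). These SCR values overlapped those of KD in each of the 4 genes. Among the lower genes, SPN was 292, 342 and 348 CPM (differences of -0.07 and -0.76) and S100A4 was 559, 646 and 554 CPM (-0.13 and -0.86). The median of the ribosomal proteins was 0.12 for KD against SCR and 0.17 for SCR against WT, that of immediate-early genes was -0.17 and 0.47, and that of cytokines was -0.05 and 0.74. Ribosome biogenesis had medians of 0.015 and 0.30, and DNA replication and S phase 0.03 and 0.20, in the same order. For the mitochondrial genome the medians were 0.31 and 0.05. MT-ND2 was 1593, 1963 and 1863 CPM in SCR (differences of 0.78, adjusted p = 0.06, and 0.05), and IFIT2 was 75.4, 75.8 and 81.4 CPM (0.51, adjusted p = 0.096, and 0.27). Neither KD against SCR difference passed the threshold.

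The same 2 conditions were also sampled after LPS, in libraries that the comparison above did not use, although the fit shares 1 estimate of the spread. KD against WT with LPS called 1808 genes (10.8%). Of the 1951 genes called without LPS, 487 were called with LPS in the same direction, which is 25.0% of the unstimulated and 26.9% of the LPS calls, and 10 in the opposite direction. Of the 975 higher genes, 803 (82.4%) had a positive log2 difference with LPS, with a median of 0.25, and of the 976 lower genes 824 (84.4%) had a negative one, with a median of -0.29. Over all genes 50.4% were positive and the median was 0.00. The number of LPS calls was 383 without WT 6, 617 without KD 5, 1091 without KD 4, 1104 without WT 4 and 1133 without KD 6, and the number shared in 1 direction was 286 without WT 3, 184 without WT 6, 243 without KD 5, and 316 and 317 without KD 6 and WT 4 (replicates 4 to 6 are those with LPS).

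GDF15 and EMP3, a membrane protein of the PMP22 family, were called higher in both states, with log2 differences of 1.92 and 2.11 without LPS and of 1.35 and 1.51 with LPS. ODC1 was also higher in both (1.34 and 0.77), and ARHGAP9, SACM1L and AKT2 were lower in both, with differences of -0.99, -0.86 and -0.97 without LPS and -0.58, -0.54 and -0.98 with LPS. TRAFD1 did not pass with LPS (log2 difference -0.23, adjusted p = 0.563), and the difference between the states did not pass either (1.00, adjusted p 0.169).

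The difference of KD against WT between the 2 states was itself tested, and 60 genes passed (0.36%; 10 positive, 50 negative, and 2593 at an unadjusted p under 0.05), of which 46 were called without LPS. The count ran from 22 without KD 6 to 1320 without KD 1, was 200 without WT 2, and was within 1.5 times of 60 without WT 3 (42) or KD 3 (52) only. The inflammatory genes that rose without LPS led the list. CCL4L1 was 229, 259 and 206 CPM in WT with LPS and 186, 181 and 191 CPM in KD with LPS, a log2 difference of -0.32 after 2.32 without LPS, so that the difference between states was -2.64 (SE 0.25, adjusted p = 8.14e-06). TNF was 132, 153 and 137 CPM in WT and 117, 103 and 123 CPM in KD with LPS (difference between states -1.76 ± 0.21, adjusted p = 0.000101). CD83 was 103, 109 and 99.8 CPM in WT and 93.2, 88.4 and 74.8 CPM in KD with LPS (difference between states -1.45 ± 0.17, adjusted p = 0.000101). In all 3 the KD libraries were above WT without LPS and below WT with LPS, where the difference between the groups did not pass the test. RCAN1, an inhibitor of calcineurin, was 48.5, 50.5 and 52.3 CPM in WT and 79.0, 86.3 and 80.7 CPM in KD without LPS, and 133, 138 and 127 CPM in WT and 96.7, 108 and 101 CPM in KD with LPS. It was called in both states in opposite directions (0.70 and -0.38), with a difference between states of -1.08 (SE 0.14, adjusted p = 0.00017), and its LPS call was lost without WT 5 or KD 4. PHACTR3, a phosphatase and actin regulator, went the other way, from 52.5, 43.0 and 48.2 CPM in WT against 32.8, 32.0 and 33.6 CPM in KD without LPS to 25.8, 24.5 and 20.7 CPM against 31.9, 31.6 and 37.6 CPM with LPS (difference between states 1.06 ± 0.19, adjusted p = 0.0113). The PHACTR3 call without LPS was lost in edgeR on the 6 libraries (adjusted p = 0.0798), and its difference between states was not called without KD 6.

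**Figure D4:**
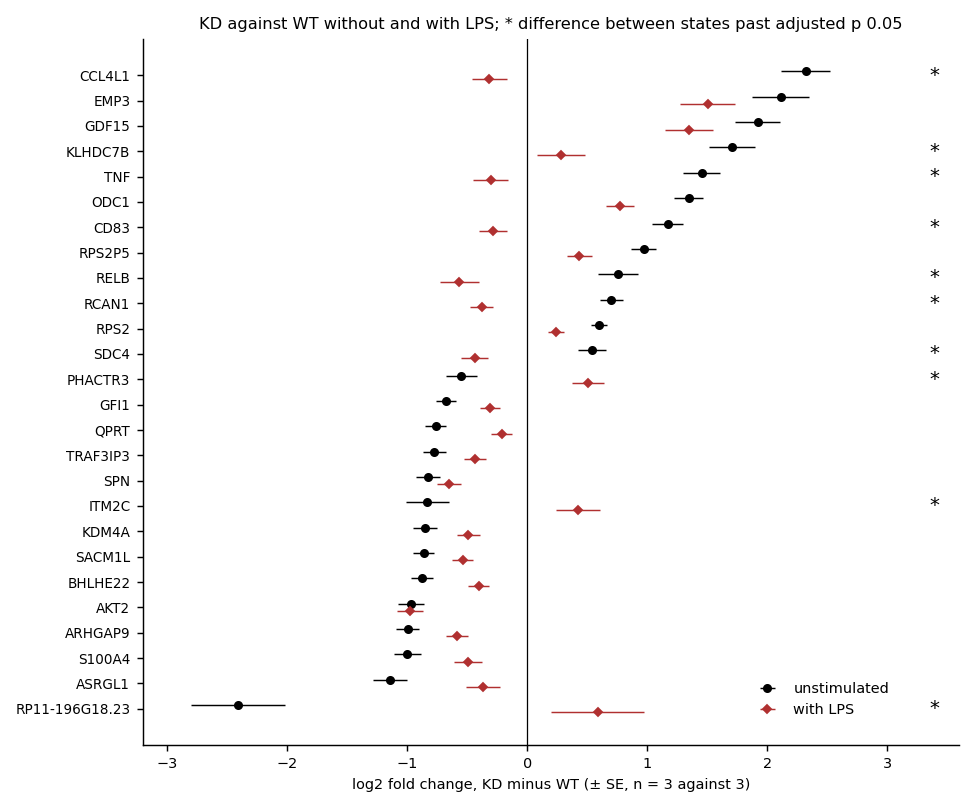
Log2 fold change of KD over WT with its SE for 26 genes, unstimulated (black circles) and with LPS (red diamonds); an asterisk marks genes whose difference between the states had an adjusted p under 0.05 in edgeR. CCL4L1 lies at 2.32 without LPS and at -0.32 with LPS, whereas EMP3 lies at 2.11 and 1.51.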

How the data were processed

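RNA of THP-1 cells was sequenced as QuantSeq 3′ libraries on a NextSeq500. The authors removed low-quality, adaptor and poly-A reads, aligned with HISAT to GRCh37 and counted with featureCounts of RSubread v1.6.2 over an Ensembl 75 annotation limited to 500 bases at gene ends. The deposited values are raw counts per gene, without normalization. Strand and multimapping settings were not given in the sources used here.

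Groups followed the labels. Genes were kept by filterByExpr of edgeR 4.0.16 (R 4.3.3), TMM scaled and fitted with 1 mean per group over all 18 libraries with quasi-likelihood F-tests, and p-values were Benjamini-Hochberg adjusted at a threshold of 0.05. The 6 libraries, of 10626885 to 21900309 counts, put 3 counts at 0.133 to 0.272 CPM. DESeq2 1.42.0 was an alternative, with others on filtering, scaling, libraries, block, GC content and pseudogenes. With 3 libraries against 3, an exact permutation test of a single value cannot go below p = 0.1. Symbols and coordinates came from GENCODE v44lift37 (GRCh37), which matched 55665 of 63677 identifiers; 9 list symbols, CCL3 and CCL4 among them, were matched to no identifier in it, so that they are not analysed here by name and may be among the unnamed identifiers. Gene lists were typed from textbook knowledge, except the trans-mediated list, which the study chose. Members, lists and the naming rule were chosen with earlier results of these data known. The rule named TRAFD1; per direction the 12 smallest p-values among called genes without overlap and the 5 largest changes with a mean of at least 1 CPM; per list up to 4 called and 2 not called genes; up to 10 genes also called against SCR; and, between the states, up to 4 genes called in opposite directions and the 3 smallest p-values per direction. Some genes and 1 gene list under these rules are not reported here.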

Additional observations from a re-analysis of the deposited data

Results flagged for a closer look

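In the genes below, the difference between KD and WT with LPS minus that without LPS passed the test of that difference itself (edgeR quasi-likelihood, Benjamini-Hochberg over all genes). A negative value means that KD stood relatively lower against WT with LPS. Values are log2 differences, and no explanation was tested.

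Chemokine and cytokine genes had the smallest p-values. CCL4L1 was at -2.63 and its copy CCL4L2 at -2.62 (adjusted p = 8.14e-06 each), TNF at -1.76 and CD83 at -1.45 (0.000101 each). The identifiers ENSG00000129277 and ENSG00000006075, which had no symbol in the annotation, were at -2.57 and -1.92. These 6 were called in all 12 fits that left out 1 library. RCAN1 (-1.08), ENSG00000112096 (-0.91), SDC4, a heparan sulfate proteoglycan (-0.97), CD44 (-0.90) and SQSTM1 (-0.68) were also called in all 12.

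RELB, the NF-kB subunit that pairs with p52, was at -1.32 and HMOX1 at -1.30, and each lost its call without the LPS library KD 5 alone. RELB was called in both states in opposite directions, with log2 differences of 0.76 and -0.56, and its call with LPS (adjusted p = 0.0313) was lost without any 1 of the 6 LPS libraries. PHACTR3 was at 1.06 and lost its call without the LPS library KD 6 alone.

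The rest depended on more libraries. ICAM1 was at -1.63 (called in 8 of 12 fits), KLHDC7B at -1.42 (4 of 12), NFKBIE at -0.76 (4 of 12), TNFAIP3 at -1.05 (3 of 12) and GBP1 at -1.65 (3 of 12). ISG20, an interferon-induced exonuclease, was at -0.60 (2 of 12). Of the positive values, RP11-196G18.23 was at 2.99 (8 of 12, and not called by DESeq2) and ITM2C, a membrane protein of the BRICHOS family, at 1.26 (3 of 12).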

How the results depend on the processing

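The 1951 calls of KD against WT were 280 in edgeR and 836 in DESeq2 on the 6 libraries alone, 180 with the stricter adjusted p and fold change limits, and 980 to 1941 when 1 library was left out, lowest without WT 3. Of all 1951 calls, 748 were kept in every such fit. The named genes were chosen in part by small p-values. Of the 153 called besides TRAFD1, 113 held in every such fit and 67 under every other alternative. Of these 153, 85 lost the call in edgeR on the 6 libraries, and 0 reversed. The no-filter, scaling, 18-library DESeq2, GC and pseudogene settings kept the count within 1.5 times. With LPS the count of 1808 was 3235 and 2949 in edgeR and DESeq2 on its 6 libraries, and 383 to 1429 without 1 library.

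The 60 genes that differed between states were 729 without the filter and 275 in DESeq2, and 22 to 1320 without 1 library. Alternatives for the SCR comparisons were chosen after seeing the data. The 11 calls of KD against SCR were 320 without the filter, 242 in DESeq2, 45 with the GC correction, 4 without pseudogenes, and 1 to 53 without 1 library. The 538 calls of SCR against WT were 929 in DESeq2 and 200 to 494 without 1 library. The cause of these shifts was not tested. Fits with fewer libraries have fewer degrees of freedom. Those on the libraries of the pair alone gave fewer calls of KD against WT without LPS and more with LPS.

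Same-numbered WT and KD libraries correlated at 0.304, 0.004 and 0.049 in their deviations from the group means. The value of WT 1 and KD 1 was the highest of all pairs. WT 1 stood at -0.148 and -0.197 against KD 2 and KD 3, and KD 1 at -0.127 and -0.184 against WT 2 and WT 3. WT 2 and WT 3 correlated best with KD 3 and KD 2, so that the numbers were not taken to pair the samples. Whether WT 1 and KD 1 were handled together was not tested. With the replicate block the counts were 2423 for KD against WT, 2566 with LPS, 547 for the difference between states, 183 for KD against SCR and 934 for SCR against WT. Depth limited genes near the floor of 3 counts.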
